A study of Homo sapiens with 6 samples.

Results

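The unfolded protein response and the integrated stress response were followed through 39 member genes out of 58938 entries in the deposited expression table. Members were taken by gene symbol and fall into 2 arms by known role. The ER arm has 20 genes, which are the stress sensors, the folding factors and the degradation factors of the endoplasmic reticulum (ER). The ATF4 arm has 19 genes, which are ATF4 itself, its partner regulators and its target genes. The cells were HCT116, an established human colorectal cancer line kept in IMDM medium with fetal bovine serum. All 6 libraries came from cells lipofected at 60% density with a plasmid, with fresh medium after 6 hours and RNA taken after 30 hours. The 3 vector libraries are labelled WT, and the 3 MST3 libraries are labelled as overexpressing MST3, a GCKIII family kinase whose gene is STK24. Cells of both groups were transfected and untransfected cells were not analysed here, so a response to lipofection itself was not tested. Whether the numbered libraries are separate cultures is not said in the labels. Each p-value here therefore speaks of the scatter among these 6 libraries alone, and that scatter may be technical.

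As background, unfolded proteins in the ER are sensed by the membrane proteins ATF6, IRE1 (gene ERN1) and PERK (gene EIF2AK3). ATF6 is cut to release a transcription factor, IRE1 splices XBP1 mRNA so that it encodes an active factor, and both factors raise chaperone and degradation genes of the ER. PERK and its sister kinases phosphorylate the initiation factor eIF2, which lowers general translation but favours that of ATF4 mRNA. ATF4 then drives amino acid synthesis, redox defence and, with DDIT3 (CHOP), cell death genes. Since XBP1 is switched on by splicing, ATF6 by cleavage and ATF4 by translation, gene-level mRNA values do not measure the active form of these factors.

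The arms differ in the DNA elements near their start sites, which are shown here because they are the known landing sites of the factors that define each arm. RefSeq promoter windows (GRCh38.p14, 250 bases before to 50 after a start) were found for 34 of 39 members. Those of NUPR1, PDIA3, PSPH, SHMT2 and DERL1 were not used here. Windows were searched on both strands for the ER stress element ERSE, spelled CCAAT, any 9 bases and CCACG, which ATF6 binds with NF-Y, and for its variant ERSE-II, spelled ATTGG, any base and CCACG. ERSE was found in 5 of 18 matched ER arm genes and in 0 of 16 matched ATF4 arm genes, and in 0.0769% of all 35116 windows (0.0916% of all genes with a window). The stretches are given on the strand of the gene with the element in capitals, and an element on the other strand appears as its reverse complement.
CALR (chr19:12938359-12938427, plus strand): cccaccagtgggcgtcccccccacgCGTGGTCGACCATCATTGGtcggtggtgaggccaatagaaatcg
CRELD2 (chr22:49918529-49918597, plus strand): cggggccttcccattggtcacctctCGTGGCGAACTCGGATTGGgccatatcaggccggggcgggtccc
CANX (chr5:179698773-179698801, plus strand): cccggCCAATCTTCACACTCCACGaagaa
PDIA6 (chr2:10812848-10812876, minus strand): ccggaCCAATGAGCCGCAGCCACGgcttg
XBP1 (chr22:28800598-28800626, minus strand): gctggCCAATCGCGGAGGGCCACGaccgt

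ERSE-II was found in 3 of the 18 matched ER arm genes, HYOU1 (2 copies), SDF2L1 and HERPUD1, in 0 of 16 ATF4 arm genes, and in 0.0541% of all windows (0.0696% of genes).
HYOU1, nearer copy (chr11:119057249-119057309, minus strand): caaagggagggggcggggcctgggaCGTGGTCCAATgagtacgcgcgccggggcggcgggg
HYOU1, farther copy (chr11:119057355-119057415, minus strand): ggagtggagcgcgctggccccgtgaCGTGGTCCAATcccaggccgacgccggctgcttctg
SDF2L1 (chr22:21642089-21642149, plus strand): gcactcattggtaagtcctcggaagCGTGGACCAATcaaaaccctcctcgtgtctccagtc
HERPUD1 (chr16:56932016-56932044, plus strand): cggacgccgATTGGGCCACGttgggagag

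The C/EBP-ATF response element CARE, to which ATF4 binds with C/EBP partners, was searched by the core TGATG, any base and AA. This shorter core is common, and 3.62% of all windows (4.46% of genes) held it. It was found in 4 of 16 matched ATF4 arm genes, ASNS, ATF3, CEBPG and CHAC1, and in 1 of 18 ER arm genes, HERPUD1, which thus held both kinds of element without overlap.
ASNS (chr7:97872458-97872487, minus strand): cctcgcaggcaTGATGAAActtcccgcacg
ATF3 (chr1:212565191-212565248, plus strand): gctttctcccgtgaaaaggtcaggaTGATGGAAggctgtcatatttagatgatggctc
CEBPG (chr19:33374046-33374103, plus strand): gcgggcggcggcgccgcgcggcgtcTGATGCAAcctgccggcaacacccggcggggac
CHAC1 (chr15:40953251-40953280, plus strand): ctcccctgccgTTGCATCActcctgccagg
HERPUD1 (chr16:56931941-56931998, plus strand): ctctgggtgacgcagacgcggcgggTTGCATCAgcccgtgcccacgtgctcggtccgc
A match of letters is a description of these windows, and binding was not measured. Of 50 member windows, 42 had the bases after their start in an annotated transcript of the gene. Those of CRELD2, HYOU1 and CEBPG printed here did not, so their start positions are less certain. The stretches of ASNS, CHAC1 and CANX overlap an annotated untranslated region or noncoding exon.

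The labels were checked on STK24, which had 17.1, 17.4 and 17.4 FPKM (fragments per kilobase of gene, scaled for each library by the authors) with vector, and 63.7, 72.2 and 76 FPKM with MST3. It was the 1 gene of 13036 tested that passed limma over all genes (adjusted p = 0.000998), and an exact permutation test of its 6 values returned p = 0.1, which is as low as 3 values against 3 can go. The reads recovered from the values came to 15289213 in MST3 replicate 1 and to 17178700 to 17708029 in the other 5 libraries. MST3 replicate 1 also had reads on the most genes, 27442 against 25099 to 25501, and the part of its depth in the results was not tested. In bulk libraries a lower level of an mRNA per cell and fewer cells that express it cannot be told apart. All 5 epithelial markers were expressed, with a summed level of 1611 to 1661 FPKM in vector and 1528 to 1935 in MST3 libraries. Of 7 markers of blood, endothelium, fibroblasts and liver, COL1A1 was measured at 3.72 to 4.97 FPKM and the other 6 summed to at most 0.39 FPKM in any library, with none at 0 in all libraries.

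The mRNAs of the stress network spanned a wide range of levels in these cells. The highest mean level over the 6 libraries was that of DDIT4, an inhibitor of mTORC1, at 386 FPKM. The lectin chaperones CALR and CANX stood at 282 and 157 FPKM, the disulfide isomerases PDIA4 and PDIA3 at 122 and 111, and ATF4 mRNA at 105. Levels of ATF4 targets varied widely. Some were low, with CHAC1 at 1.54, ASNS at 1.74 and ATF5 at 2.46 FPKM. Others were well expressed, such as MTHFD2 at 53.9, SHMT2 at 48.5, PSAT1 at 33.6 and STC2 at 19.4 FPKM. Exons of ASNS and ATF5 overlap those of other genes, so their levels are less certain. NUPR1, a small stress-induced chromatin protein, had between 0 and 3 reads per library, and VLDLR, a lipoprotein receptor, had 7 to 16. These 2 genes fell under the mean of 1 FPKM required for testing, so 37 of 39 members were tested, 20 of the ER arm and 17 of the ATF4 arm.

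No member passed limma over all genes (0 of 37; background 0.00767% of tested genes), with adjusted p-values from 0.719 to 0.999. By limma voom, run on the recovered reads, the count was 0 as well. At an unadjusted p under 0.05 there were 4 members by limma and 4 by voom. In limma these were MANF and SDF2L1 (2 higher in MST3 libraries, background 3.51% of tested genes) and EDEM1 and ATF3 (2 lower, background 1.86%). The 4 of 37 are 10.8% of the tested members, beside 5.38% of all tested genes (voom: 6.68%). Members were chosen with earlier results of these data known, so this share is a description and was not tested. The count was 10 without MST3 replicate 2, 1 without MST3 replicate 1 or vector replicate 3, and 0 without vector replicate 1 or 2. Shares of all tested genes with a library left out are not given here, so these counts have no background beside them. The 5.38% belongs to the fit of all 6 libraries. The 95% interval of the log2 difference lay within 1 of 0 for all 37 tested members and within 0.5 for 30 of them (81.1%, beside 74.4% of all tested genes). That scale adds 1 to each FPKM value, so the bound is looser for members with low levels.

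In the ER arm 14 of 20 tested members were lower in the MST3 group, with a median log2 difference of -0.08. In the ATF4 arm 8 of 17 were lower and 9 higher, with a median of 0.03, or -0.02 without MST3 replicate 3. The ATF4 minus ER difference of the medians was 0.11, or 0.06 when MST3 replicate 1 was left out and 0.18 when MST3 replicate 2 was. With the trend of each library with gene length removed, both medians were negative (-0.03 in the ATF4 arm and -0.06 in the ER arm) and their difference was 0.03. Over all tested genes 53.4% were lower and the median was -0.01. The vector and MST3 values did not overlap for 8 members, or 21.6% of those tested, beside 11.9% of all tested genes. Of these 8, MANF was higher (background 5.19%) and 7 were lower (background 6.7%). The lower ones were XBP1, ERN1, EDEM1, HERPUD1 and DERL1 in the ER arm and ATF3 and PSPH in the ATF4 arm. These shares also describe members chosen with earlier results of these data known, and they were not tested.

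**Figure D1:**
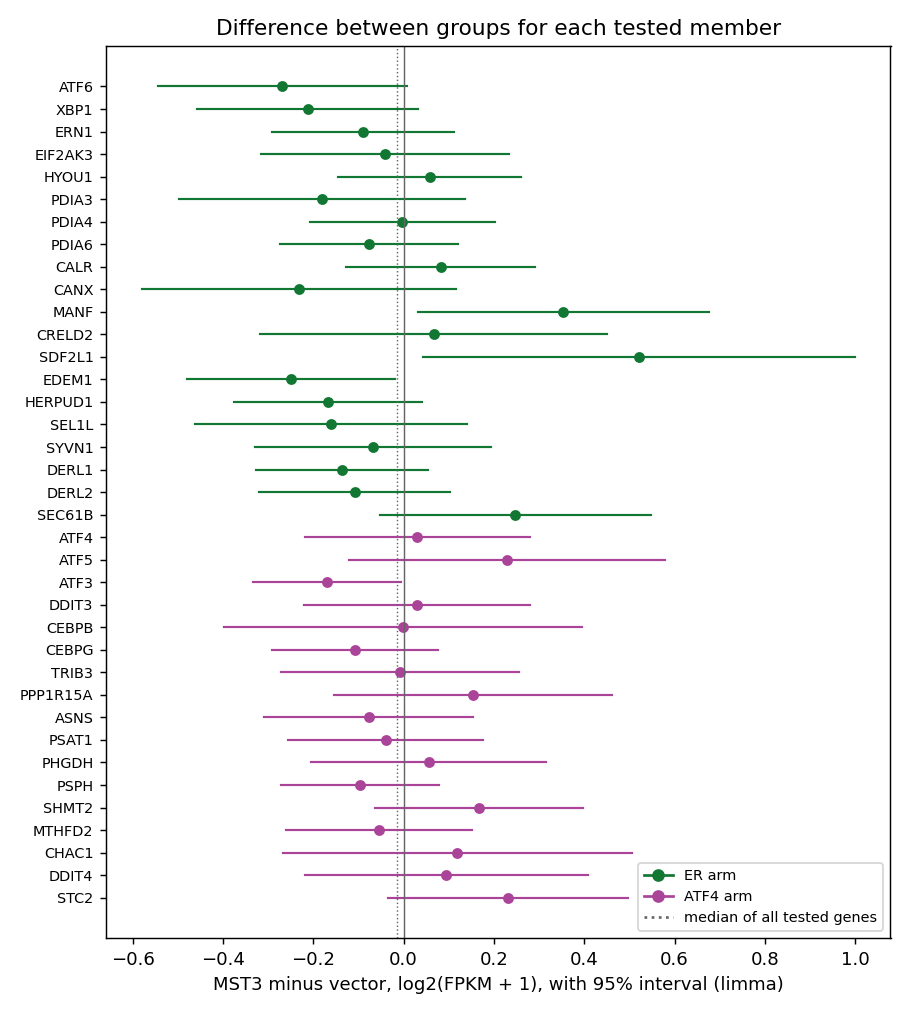
Each point is the MST3 minus vector difference of a tested member on the log2(FPKM + 1) scale, and its line is the 95% interval from limma (3 libraries per group). Points of the ER arm spread from -0.27 (ATF6) to 0.52 (SDF2L1), and those of the ATF4 arm from -0.17 (ATF3) to 0.23 (STC2, with ATF5 at the same rounded value).

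The sensor group holds the genes of the ER stress sensors and XBP1, the target of IRE1. All 4 had a lower mean in the MST3 group, with a median log2 difference of -0.15. ATF6 (chromosome 1, 161766294 to 161964070, plus strand, GRCh38) had 9.6, 10.9 and 9.24 FPKM in vector libraries. In MST3 replicates 1 to 3 it had 7.28, 9.56 and 7.44 FPKM. MST3 replicate 2 lay among the vector values and the other MST3 libraries under them. On the log2 scale this was -0.27 (SE 0.12, 95% interval -0.54 to 0.01), with a limma p of 0.0549 unadjusted. XBP1 (chromosome 22, 28794555 to 28800597, minus strand) had 19.4, 21.9 and 20.2 FPKM in vector and 15.4, 19.2 and 18.2 in MST3 libraries. Its groups did not overlap, by a margin of 19.2 to 19.4 FPKM, and the difference in log2 was -0.21 (SE 0.10, 95% interval -0.46 to 0.03), or -0.13 when MST3 replicate 1 was left out. A processed pseudogene of XBP1, XBP1P1, averaged 0.852 FPKM with vector and 0.246 FPKM with MST3, and reads could be split between the copies.

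ERN1, which encodes IRE1, had 5.02, 4.98 and 5.01 FPKM in vector and 4.1, 4.95 and 4.91 in MST3 libraries. The vector libraries were nearly equal, and only MST3 replicate 1 was far from them, so the absence of overlap rests on small gaps in the other MST3 libraries. EIF2AK3, which encodes PERK, had 4.22, 5.54 and 4.69 FPKM in vector and 4.58, 5.28 and 4.09 in MST3 libraries, and the ranges largely overlapped. Its log2 difference of -0.04 had a 95% interval of -0.32 to 0.23.

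Of the 9 folding genes, 5 had a higher and 4 a lower mean with MST3, with a median log2 difference of 0.06. MANF (chromosome 3, 51385047 to 51389397, plus strand) is a secreted ER stress factor that binds the chaperone BiP. It had 18.5, 19.4 and 20.1 FPKM in vector and 31, 23.4 and 21.4 in MST3 libraries. Every MST3 value lay above every vector value, and replicate 1 lay furthest away. The means were 19.3 ± 0.824 and 25.3 ± 5.08 FPKM (SD, n = 3 per group), or a MST3 to vector ratio of 1.31. On the log2 scale this was 0.35 (SE 0.14, 95% interval 0.03 to 0.68), with a limma p of 0.0355 unadjusted and adjusted p = 0.719. Without MST3 replicate 1 the log2 difference was 0.20.

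SDF2L1, a component of the ER chaperone complex around BiP (chromosome 22, 21642261 to 21644298, plus strand), had 28.9, 25.9 and 28.9 FPKM in vector and 45.2, 28.4 and 51.1 in MST3 libraries. MST3 replicates 1 and 3 were high, while replicate 2 sat within the vector range. The means were 27.9 ± 1.75 and 41.6 ± 11.8 FPKM (SD, n = 3 per group), or a MST3 to vector ratio of 1.49. The log2 difference, 0.52 (SE 0.20, 95% interval 0.04 to 1.00), was the largest of the 37 tested members, with a limma p of 0.0367 unadjusted and adjusted p = 0.719. Leaving out MST3 replicate 2 gave 0.77, and leaving out MST3 replicate 3 gave 0.35.

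CANX, the membrane-bound lectin chaperone calnexin, had 160, 186 and 161 FPKM in vector and 125, 177 and 133 in MST3 libraries. PDIA3, the disulfide isomerase that works with calnexin and calreticulin, had 109, 127 and 119 FPKM in vector and 94.4, 126 and 94.4 in MST3 libraries. In both genes MST3 replicates 1 and 3 were under all vector values and replicate 2 lay between the highest vector value and the other vector values. The log2 differences were -0.23 for CANX (95% interval -0.58 to 0.12) and -0.18 for PDIA3 (95% interval -0.50 to 0.14). Leaving out MST3 replicate 2 gave -0.38 for CANX and -0.32 for PDIA3, and leaving out MST3 replicate 1 gave -0.13 and -0.11. PDIA3 was also at -0.11 when MST3 replicate 3 was left out. The pseudogenes PDIA3P1 and PDIA3P2 stood at 6.04 and 1.32 FPKM with vector and at 5.08 and 3.77 FPKM with MST3, and reads could be divided between the copies.

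CALR, the soluble partner of calnexin, lay the other way at 274 ± 9.9 and 290 ± 15.4 FPKM (SD, n = 3), a log2 difference of 0.08. PDIA4 differed least in the ER arm, at 122 ± 4.65 and 122 ± 6.3 FPKM (SD, n = 3). The log2 differences of the remaining folding genes were 0.06 for HYOU1, an ER HSP70-like chaperone, 0.07 for the disulfide isomerase-like CRELD2, and -0.08 for the isomerase PDIA6. Among the 8 ER arm genes with an ERSE or ERSE-II, 4 were higher and 4 lower, with a median of -0.01. The 10 matched ER arm genes without these elements had 2 higher and 8 lower, with a median of -0.08. Genes that carry the element thus lay on both sides, from SDF2L1 at 0.52 to CANX at -0.23.

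The degradation group holds 6 genes of ER-associated degradation and the translocon gene SEC61B. Of these 7 genes, 6 had a lower mean in the MST3 group, and the median log2 difference was -0.14. EDEM1, a lectin-like factor that hands misfolded glycoproteins to degradation (chromosome 3, 5187646 to 5219957, plus strand), had 10.5, 11.1 and 9.51 FPKM in vector and 9.51, 8.49 and 7.74 in MST3 libraries. MST3 replicate 1 and vector replicate 3 were nearly equal, and the groups just failed to overlap. The means were 10.4 ± 0.785 and 8.58 ± 0.89 FPKM (SD, n = 3 per group), or a MST3 to vector ratio of 0.828. On the log2 scale this was -0.25 (SE 0.10, 95% interval -0.48 to -0.02), with a limma p of 0.0379 unadjusted and adjusted p = 0.719. EDEM1 was lower under each of the 16 alternatives run, with an unadjusted p from 0.0154 to 0.127.

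HERPUD1, a membrane factor that organises the degradation complex, had 13.9, 15.4 and 14.3 FPKM in vector and 11.7, 13.6 and 13.2 in MST3 libraries. DERL1, a channel protein of the same complex, had 12.5, 13.6 and 12.1 FPKM in vector and 10.9, 12 and 11.5 in MST3 libraries. In both genes the groups were separated by a small gap, with log2 differences of -0.17 and -0.14 and 95% intervals that include 0. That of HERPUD1 was -0.11 when MST3 replicate 1 was left out. SEC61B, a subunit of the translocon through which chains enter the ER, was the gene of the group that lay the other way, at 28.5, 28.8 and 32.2 FPKM in vector and 42.7, 33.2 and 31.6 in MST3 libraries. MST3 replicate 1 was the high one, and the difference in log2 was 0.25 (95% interval -0.05 to 0.55). It was 0.12 when MST3 replicate 1 was left out and 0.17 with the length trend removed. SEL1L, DERL2 and the ubiquitin ligase SYVN1 had log2 differences of -0.16, -0.11 and -0.07. SYVN1 shares 7.24% of its exon bases with FAU, which stood at 128 FPKM on the same strand, so its reads are uncertain.

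**Figure D2:**
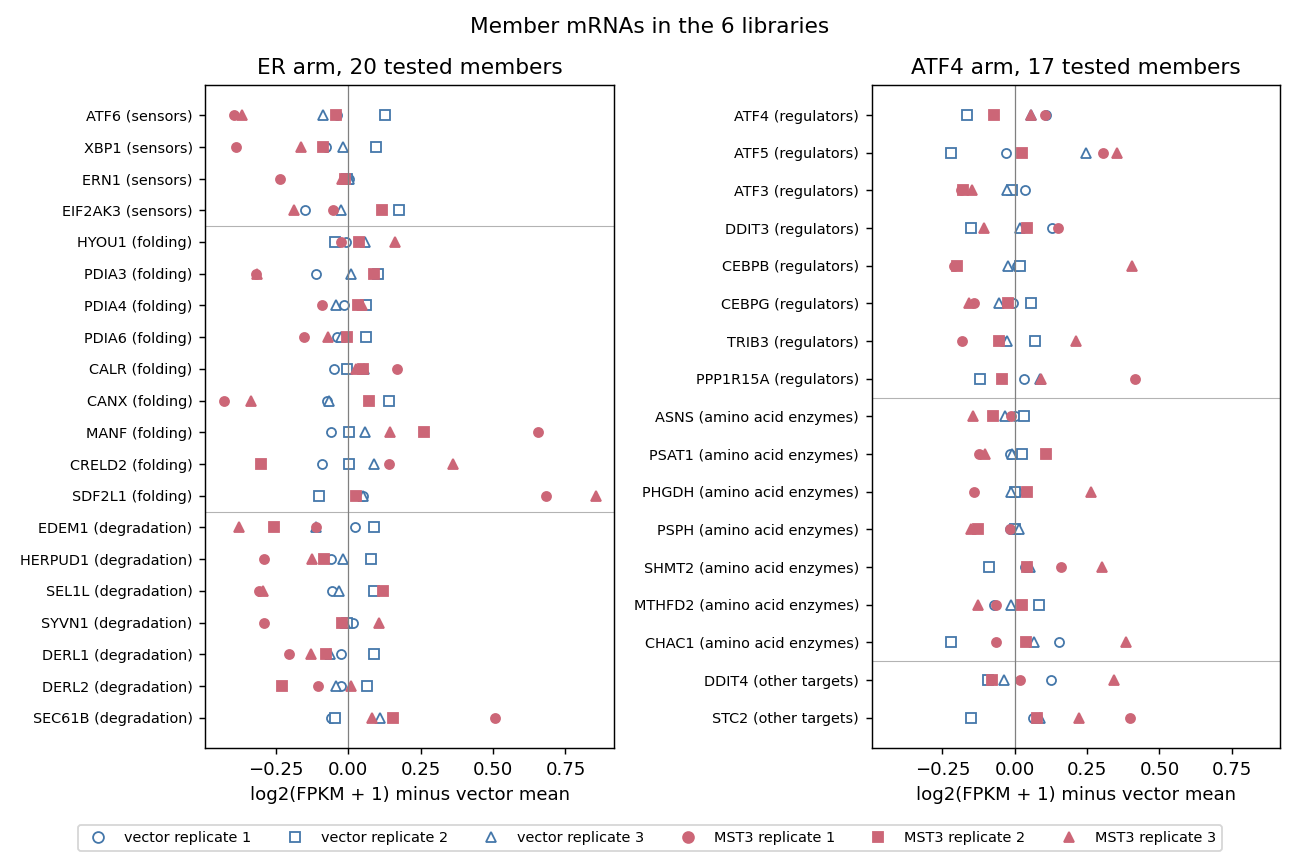
Each row is a tested member and each symbol a library, placed at log2(FPKM + 1) minus the mean of the 3 vector libraries (open symbols vector, filled symbols MST3). MST3 replicate 1 (filled circles) was the lowest of the 6 libraries for 11 of 20 ER arm members (55%, beside 27.3% of all tested genes). Among other tested pathway genes, not drawn, it was lowest for 44.1% of ER genes and 56.25% of those around eIF2 and ATF4. MST3 replicate 3 (filled triangles) was the highest for 7 of 17 ATF4 arm members (41.2%, beside 28.4% of all tested genes).

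In the ATF4 arm the 8 tested regulators had 4 higher and 4 lower, with a median log2 difference of 0.01. ATF4 mRNA (chromosome 22, 39519695 to 39522685, plus strand) had 112, 92.8 and 108 FPKM in vector and 112, 98.9 and 108 in MST3 libraries. The groups had nearly the same range, and the difference in log2 was 0.03 (SE 0.11, 95% interval -0.22 to 0.28). DDIT3, which encodes CHOP, had 14.8, 12.1 and 13.7 FPKM in vector and 15.1, 13.9 and 12.5 in MST3 libraries, a log2 difference of 0.03 (95% interval -0.22 to 0.28). Exons of DDIT3 share 27.2% of their bases with MARS, which lies on the other strand at 20.8 FPKM. The strand setting of the counting is not given in the sources used here, so reads of the 2 genes cannot be told apart there.

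ATF3, a stress-induced repressor of the ATF/CREB family (chromosome 1, 212565334 to 212620777, plus strand), had 12.5, 12.1 and 11.9 FPKM in vector and 10.6, 10.6 and 10.9 in MST3 libraries. Here the replicates were tight in both groups and the groups did not overlap. The means were 12.2 ± 0.288 and 10.7 ± 0.173 FPKM (SD, n = 3 per group), or a MST3 to vector ratio of 0.88. On the log2 scale this was -0.17 (SE 0.07, 95% interval -0.33 to -0.01), with a limma p of 0.0437 unadjusted and adjusted p = 0.719. It was lower under each of the 16 alternatives run, with an unadjusted p from 0.0131 to 0.164.

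ATF5, a relative of ATF4 with the same kind of translational control, had 2.1, 1.72 and 2.75 FPKM in vector and 2.91, 2.22 and 3.04 in MST3 libraries. The groups overlapped, and these values rest on 87 to 154 reads per library. The log2 difference was 0.23 (95% interval -0.12 to 0.58), and 0.36 by voom. It was 0.12 when vector replicate 2 was left out and 0.35 when vector replicate 3 was. Exons of ATF5 share 21.2% of their bases with NUP62, on the other strand at 15.9 FPKM. PPP1R15A, the phosphatase subunit GADD34 that reverses eIF2 phosphorylation, had 18.3, 16.3 and 19 FPKM in vector and 24.1, 17.3 and 19.1 in MST3 libraries. Its log2 difference was 0.15 (95% interval -0.15 to 0.46). It was 0.02 without MST3 replicate 1, 0.25 without MST3 replicate 2 and 0.09 without vector replicate 2. CEBPG, a partner of ATF4 at CARE sites, had 12.3, 12.8 and 11.8 FPKM in vector and 11.1, 12.1 and 10.9 in MST3 libraries, a log2 difference of -0.11. CEBPB and the pseudokinase TRIB3 had mean differences of -0.00 and -0.01, but their MST3 replicates were spread, at 26.2% and 15.5% of the mean (SD), beside 1.53% and 4.65% in vector libraries. The high library was MST3 replicate 3 in both.

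The 7 enzymes of amino acid and folate metabolism had 3 higher and 4 lower, with a median log2 difference of -0.04. SHMT2, which makes one-carbon units from serine in mitochondria, had 46.7, 42.7 and 47.3 FPKM in vector and 51, 46.9 and 56.3 in MST3 libraries. Its log2 difference was 0.17 (95% interval -0.06 to 0.40), or 0.10 when MST3 replicate 3 was left out, and the groups overlapped through MST3 replicate 2. PSPH, the last enzyme of serine synthesis, had 11.3, 11.4 and 11.6 FPKM in vector and 11.3, 10.4 and 10.2 in MST3 libraries. Those groups did not overlap, but MST3 replicate 1 came within rounding of the vector values. A pseudogene, PSPHP1, stood at 20 and 24.7 FPKM, above PSPH itself, so the division of reads between the copies is uncertain.

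ASNS, asparagine synthetase, had 1.81, 1.87 and 1.75 FPKM in vector and 1.79, 1.67 and 1.55 in MST3 libraries. Its log2 difference was -0.08, from 118 to 143 reads. Exons of ASNS share 44.6% of their bases with AC079781.5, which stood at 0.159 FPKM on the same strand. How reads in the shared bases were counted is not known, so the level of ASNS is uncertain. CHAC1, which breaks down glutathione, had 1.69, 1.08 and 1.53 FPKM in vector and 1.31, 1.48 and 2.15 in MST3 libraries. These values rest on 38 to 76 reads. MST3 replicate 3 was its highest library and vector replicate 2 its lowest, and the difference in log2 was 0.12 (95% interval -0.27 to 0.51). It was -0.01 when MST3 replicate 3 was left out, 0.01 when vector replicate 2 was, 0.21 when MST3 replicate 1 was and 0.20 when vector replicate 1 was. PHGDH and PSAT1, the first enzymes of serine synthesis, and the mitochondrial folate enzyme MTHFD2 had log2 differences of 0.06, -0.04 and -0.05. Of the 4 ATF4 arm genes with a CARE core, CHAC1 was higher and ASNS, ATF3 and CEBPG lower.

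Both other tested ATF4 arm members had a higher mean in the MST3 group, though DDIT4 turned to -0.03 when MST3 replicate 3 was left out. STC2, a secreted glycoprotein, had 18.5, 15.8 and 18.9 FPKM in vector and 23.6, 18.7 and 20.8 in MST3 libraries. The groups overlapped by a narrow margin, and the difference in log2 was 0.23 (SE 0.11, 95% interval -0.04 to 0.50), or 0.15 when MST3 replicate 1 was left out. DDIT4 had 405, 349 and 362 FPKM in vector and 376, 352 and 471 in MST3 libraries, so only MST3 replicate 3 was above the vector range. Its log2 difference was 0.09 (95% interval -0.22 to 0.41). VLDLR had 0.0548, 0.0625 and 0.0982 FPKM in vector and 0.047, 0.0493 and 0.0625 in MST3 libraries, too few reads for a comparison.

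Other genes of the same pathways were counted in the same way. Of 34 tested ER genes 11 were higher and 23 lower, with a median of -0.07, and 0 passed limma over all genes. At an unadjusted limma p under 0.05 there was 1 (2.94%), beside 5.38% of all tested genes. The groups did not overlap for 3 of the 34 (1 higher and 2 lower), beside 11.9% of all tested genes. TXNDC5, a disulfide isomerase, had 2.5 and 3.31 FPKM and the transcription factor CREB3L2 had 15.1 and 12.9 FPKM, both without overlap. The degradation factor SELENOS had 7.84 and 8.74 FPKM, and the COPII coat gene SEC24D 8.64 and 7.65. HSPA5, which encodes BiP and was chosen after its values were seen, had 324 ± 21.2 and 289 ± 29.1 FPKM (SD, n = 3), a log2 difference of -0.17 with overlap. Of 32 tested genes around eIF2 and ATF4, 13 were higher and 19 lower, with a median of -0.03, and 0 passed. At an unadjusted limma p under 0.05 there were 2 (6.25%), near the 5.38% of all tested genes. Here the groups did not overlap for 5 of the 32 (2 higher and 3 lower), or 15.6%, beside 11.9% of all tested genes. PYCR1, which completes proline synthesis, had 49.5 and 65.1 FPKM, VEGFA had 8.26 and 9.7, and the eIF2 kinase gene EIF2AK1 (HRI) had 53.1 and 44.7, each without overlap. EIF2AK4 (GCN2) had 9.01 and 7.91 FPKM with overlap.

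Compared library by library, the arms did not separate in every MST3 library. For each tested member the mean of the vector libraries was subtracted, and the median was taken over the arm. The ER arm median was -0.04, 0.06 and -0.02 in vector replicates 1 to 3 and -0.13, 0.01 and -0.05 in MST3 replicates 1 to 3. The ATF4 arm median was 0.01, -0.01 and -0.01 in vector and -0.02, -0.02 and 0.09 in MST3 libraries. MST3 replicate 1 was thus low for the ER arm, and MST3 replicate 3 high for the ATF4 arm. Replicate 2 of the MST3 group was near the vector libraries in both arms. MST3 replicate 1 was as low over the other ER genes (median -0.14) and the other genes around eIF2 and ATF4 (-0.13). The ATF4 minus ER difference was 0.05, -0.07 and 0.01 in vector and 0.12, -0.03 and 0.14 in MST3 libraries, so the groups overlapped.

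**Figure D3:**
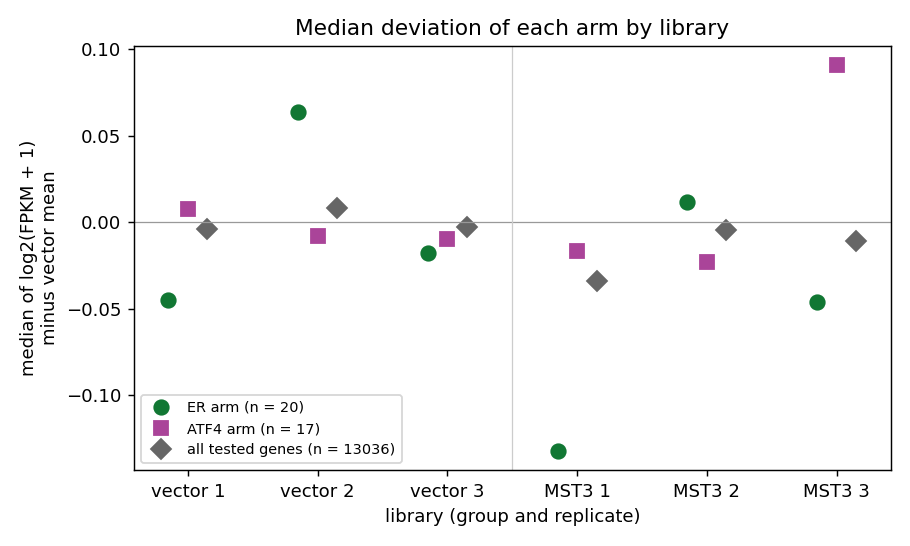
Each symbol is the median over the tested members of an arm, or over all 13036 tested genes, of log2(FPKM + 1) minus the vector mean in 1 library. The ER arm was lowest in MST3 replicate 1 (-0.13) and the ATF4 arm highest in MST3 replicate 3 (0.09), and in MST3 replicate 2 both lay within 0.03 of 0.

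Spread among replicates was larger in the MST3 group for most members. The coefficient of variation was larger there for 18 of 20 ER arm members and 12 of 17 ATF4 arm members, beside 77.1% of all tested genes. Its median was 5.94% in vector and 12% in MST3 libraries for the ER arm, and 5.45% and 9.46% for the ATF4 arm, beside 7.25% and 13.6% over all tested genes. MST3 replicate 1 was the lowest library for 55% of the ER arm and 29.4% of the ATF4 arm, beside 27.3% of all tested genes. Among other tested pathway genes it was lowest for 44.1% of ER genes and 56.25% of those around eIF2 and ATF4. A low MST3 replicate 1 was thus not particular to the ER arm. Vector replicate 2 was the highest for 55% of the ER arm and the lowest for 47.1% of the ATF4 arm, beside 23.6% and 19% of all tested genes.

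The differences also moved with gene length, in members as in all genes. All 3 tested members under 1.5 kb were higher in the MST3 group (SDF2L1, SEC61B and DDIT3), as were 6 of 9 between 1.5 and 3 kb, 3 of 15 between 3 and 6 kb and 3 of 10 over 6 kb. Over all tested genes the median log2 difference in these bins was 0.08, 0.06, -0.01 and -0.06. In MST3 replicate 1 the medians of all genes ran from 0.18 in the shortest bin to -0.10 in the longest, in replicate 3 from 0.03 to -0.08, and in replicate 2 from 0.01 to -0.00. The median length of tested members was 5300 bases in the ER arm and 3093 in the ATF4 arm. After removal of this trend the log2 differences were 0.44 for SDF2L1 (limma p of 0.0464 unadjusted), 0.31 for MANF (0.0521), -0.21 for EDEM1 (0.085) and 0.17 for SEC61B, so MANF and EDEM1 no longer had an unadjusted p under 0.05.

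**Figure D4:**
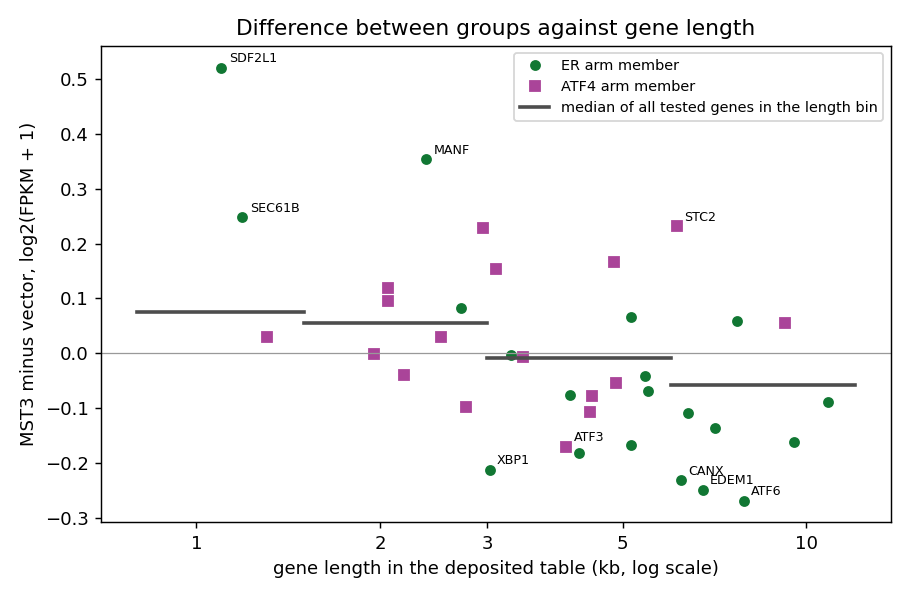
Each point is a tested member, placed by gene length (log axis) and by its MST3 minus vector difference in log2(FPKM + 1), and grey bars are medians of all tested genes in 4 length bins. Bars step down from 0.08 to -0.06, with SDF2L1 (0.52), MANF (0.35) and SEC61B (0.25) above them at short lengths.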

How the data were processed

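Total RNA of 6 libraries was sequenced. The authors deposited FPKM values, with gene positions and lengths. The aligner HISAT2 is named per the submitters' processing notes. Its version and the counter, strand setting, build and annotation were not given in the sources used here. All 58735 Ensembl entries have the same position in GENCODE 29, so coordinates are on GRCh38. FPKM times gene length was a whole multiple of 1 step in 100% of values (tolerance 0.01), which gave reads per gene.

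The test was limma 3.58.1 under R 4.3.3 (eBayes with trend, two-sided) on log2(FPKM + 1), over genes whose mean reached 1 FPKM. The Benjamini-Hochberg adjustment ran over all of them with a threshold of 0.05. The pseudocount makes differences of low genes smaller. The fit was tested on simulated data. Arm medians were not tested. Members and lists were chosen with earlier results of these data known. Values per library are given for 6 sensors and regulators, members with p under 0.05 or groups without overlap, and the 4 smallest p per role. Of the pathway genes outside the members, the 4 smallest p per list are given. Alternatives covered pseudocount, filter, scaling, variance trend, replicate block, voom, gene length and each library left out. Promoters came from RefSeq. Tables and plots used Python 3.11.15, pandas 2.3.3, numpy 2.4.6, scipy 1.17.1 and matplotlib 3.10.9.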

Additional observations from a re-analysis of the deposited data

How the results depend on the processing

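Under each of the 16 alternatives 1 gene (STK24) and 0 members passed over all genes. The count of members at an unadjusted p under 0.05, 4 in the report, was 2 with the length trend removed or with median-of-ratios factors, and 0 to 10 with 1 library left out. Shares of all tested genes in these fits are not given here, so the counts cannot be read as a trait of the members. The ATF4 arm median was -0.026 with the length trend removed and -0.019 to 0.063 with 1 library left out, and the ER arm median stayed negative in all (-0.116 to -0.036 with 1 library left out). The difference between the arm medians was 0.032 with the length trend removed and 0.059 to 0.18 with 1 library left out. The cause was not tested for any of these. Of the 24 members with tested values per library, 19 kept their direction under every alternative run. Removal of the length trend turned ATF4 to -0.013 and DDIT3 to -0.049. With 1 library left out ATF4 ranged from -0.051 to 0.084, DDIT3 from -0.046 to 0.096, CHAC1 from -0.014 to 0.21, DDIT4 from -0.030 to 0.18 and EIF2AK3 from -0.12 to 0.046.

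With the replicate number as a block, 6 members had an unadjusted p under 0.05 and 0 passed, and the block changed no call. The share of all tested genes under 0.05 in that fit is not given here, so the 6 have no background beside them. Same-numbered libraries had correlations of their deviations of 0.02, 0.23 and 0.04, so the numbers were not taken as pairs. Of the 3 vector libraries, 1 (replicate 2) correlated best with the MST3 library of its own number. Among tested members CHAC1, ATF5 and ASNS had the fewest reads, and NUPR1 and VLDLR were too low for a comparison.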
